A study of Homo sapiens with 4 samples.

Results

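Gene expression was described in HepG2 cells that had received a negative control anti-miR. HepG2 is an established human liver tumour line. The 2 control arrays, titled anti-miR-NC 1 and 2, were taken by their labels from a series of 4 arrays. The other 2 arrays came from HepG2 cells transfected with anti-miR-191, an antisense inhibitor of a microRNA, and no comparison between the treatments is made. All 4 cultures were the same line, grown in serum-containing medium and transfected with the lipid reagent Oligofectamine, so the controls are transfected cells and not untouched ones. The sources used here state neither the control oligonucleotide's sequence nor the dose or the time after transfection. The series text places the duplicate treatments in independent studies, so control replicates 1 and 2 are taken as 1 culture from each of 2 experiments. From 33297 rows of the deposited table, the 19460 with exactly 1 gene symbol were kept, and the brightest row on the control arrays stood for each gene, which left 18417 genes.

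Hepatocytes make most proteins of blood plasma, among them albumin, transport proteins, apolipoproteins and clotting factors. They also run the urea cycle, make glucose and bile acids, and oxidise drugs with cytochrome P450 enzymes. In the fetal liver, hepatoblasts make alpha-fetoprotein, which adult liver switches off and which many liver tumours make again. HepG2 is widely used as a hepatocyte model, with part of the adult programme retained.

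A level here is a robust multi-array average (RMA) intensity on the log2 scale, so that a step of 1 is a doubling of the signal. Every pair of values is given with replicate 1 first and replicate 2 second. Ranks run from 1, the brightest, over the 18417 genes by the mean of both arrays. They order probe-set signals, which also depend on how well each probe set binds, and are not an order of transcript numbers. RNA was taken from whole cultures, so fewer cells that express a gene and less RNA per cell cannot be told apart. Medians of all rows were 4.37 and 4.43, and gene levels ran from 2.00 to 13.15 on replicate 1 and from 1.91 to 13.45 on replicate 2.

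As markers of the hepatocyte lineage 4 genes were read, and all 4 lay in the upper end of the range on both arrays. Some other hepatocyte genes read low, as given below. APOA1, the main protein of high-density lipoprotein, read 11.60 and 11.56 (rank 62). TTR, the plasma carrier of thyroid hormone and of retinol-binding protein, read 11.005 and 10.77 (rank 118). Each of these genes had nearly the same level in both experiments. ALB, serum albumin, read 10.14 and 10.58 (rank 202), and AFP, alpha-fetoprotein, read 9.14 and 9.84 (rank 454). Both were higher in replicate 2. Between the anti-miR-191 arrays, replicate 2 minus replicate 1, they went the other way, ALB by -0.97 and AFP by -0.71. The SD of the 2 arrays was 0.03 for APOA1, 0.16 for TTR, 0.31 for ALB and 0.49 for AFP, the widest of the 4.

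The DNA just before the start site is shown for ALB and AFP, and for APOA2, GAPDH and ENO1, protein-coding genes at the very top of the intensity range. The other markers, APOA1 and TTR, had no promoter in the RefSeq set used and are not shown. The sequences come from RefSeq on GRCh38.p14, run 5′ to 3′ on the gene's strand and cover the 150 bases before the first start listed for the gene. Capitals mark matches to GTTAATNAT, a motif of the liver factor HNF1, or to TATAAA, the TATA box. The windows are chr4:73404137-73404286 (plus strand) for ALB, chr4:73436071-73436220 (plus) for AFP, chr1:161223629-161223778 (minus) for APOA2, chr12:6535114-6535263 (plus) for GAPDH and chr1:8878687-8878836 (minus) for ENO1.
ALB: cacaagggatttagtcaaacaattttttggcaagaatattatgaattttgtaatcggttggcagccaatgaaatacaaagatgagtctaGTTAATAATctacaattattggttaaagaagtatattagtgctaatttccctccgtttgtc
AFP: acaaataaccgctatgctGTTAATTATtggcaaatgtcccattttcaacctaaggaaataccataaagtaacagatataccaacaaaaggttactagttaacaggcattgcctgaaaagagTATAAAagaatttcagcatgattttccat
APOA2: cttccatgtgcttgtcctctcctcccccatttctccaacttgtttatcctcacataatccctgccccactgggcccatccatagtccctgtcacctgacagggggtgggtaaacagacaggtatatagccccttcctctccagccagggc
GAPDH: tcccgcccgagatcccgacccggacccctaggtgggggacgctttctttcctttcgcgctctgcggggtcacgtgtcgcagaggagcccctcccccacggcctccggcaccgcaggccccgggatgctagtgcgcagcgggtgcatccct
ENO1: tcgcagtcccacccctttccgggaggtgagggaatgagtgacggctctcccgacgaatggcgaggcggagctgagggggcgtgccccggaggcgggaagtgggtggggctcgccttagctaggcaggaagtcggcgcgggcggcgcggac
Counted back from the base before the start as -1, the HNF1 motif of ALB lay at -61 to -53. That of AFP lay at -132 to -124, with TATAAA at -29 to -24. These letters were not found in the windows of APOA2, GAPDH and ENO1. Over 300 bases around the start, 250 before and 50 after, the GC content was 33.3% for ALB, 33.0% for AFP and 53.0% for APOA2, against 70.7% for GAPDH and 69.7% for ENO1. The CpG ratio, the number of CpG steps over the number expected from the C and G content, was 0.481, 0.123 and 0.052 for the liver genes and 0.761 and 0.882 for GAPDH and ENO1. The liver genes shown were thus poorer in CpG than the glycolytic ones shown.

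To read the low end of the range, olfactory receptors were used, since these genes of the nose are almost silent elsewhere. The median of 341 olfactory receptors was 3.0 on replicate 1 and 2.95 on replicate 2, and their 95th percentile was 4.12 and 4.24. This 95th percentile is called the olfactory limit. On both arrays 11178 of 18417 genes (60.7%) lay above it, 760 lay above it on 1 array only and 6479 on neither. A stricter line, the silent tissue limit, is the 95th percentile of 89 markers of muscle, neurons, epidermis, germ line, pancreas and stomach, and the eye, at 5.85 and 5.67. Above it on both arrays lay 6111 genes (33.2%). The counts of list members given below are to be read beside these shares of all genes, 60.7% and 33.2%. A level over either limit is not proof of expression: 31 of the 89 silent tissue markers (34.8%) were over the olfactory limit.

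**Figure D1:**
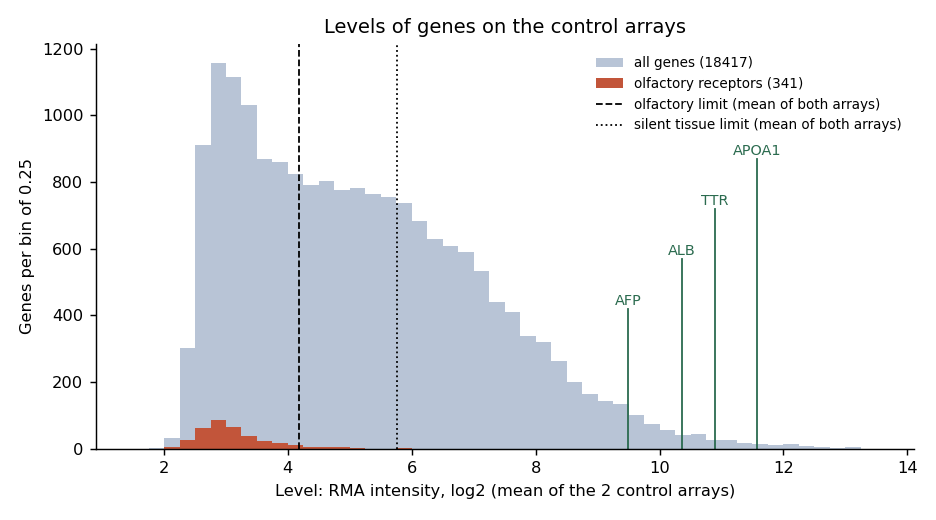
Histogram of levels (log2 RMA intensity, mean of the 2 control arrays) for 18417 genes in grey and 341 olfactory receptors in red, as genes per bin of 0.25. The dashed and dotted lines are the olfactory and silent tissue limits (each the mean of both arrays), and green lines mark AFP, ALB, TTR and APOA1, which all lie right of both limits.

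The brightest genes were those of glycolysis, ribosomes, small nuclear and nucleolar RNA, the simple-epithelial cytoskeleton and 1 plasma protein. GAPDH, a glycolytic enzyme, stood first at 13.15 and 13.22, and ENO1, enolase, had rank 5 at 13.02 and 12.91. APOA2, an apolipoprotein of high-density lipoprotein, had rank 6 at 13.01 and 12.91, so that a secreted liver product shared the top of the range with housekeeping genes. The paired keratins of simple epithelia followed, with KRT8 at 12.54 and 12.61 and KRT18 at 12.51 and 12.57. FTL, the light chain of the iron store ferritin, read 12.36 and 12.42. For each of these genes the arrays differed by less than 0.26, the pooled SD of the 2 arrays over genes above the limit on at least 1 array.

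The other genes among the top 20 were mostly parts of the translation and RNA machinery. RPS3 read 12.86 and 12.81, RPS27 12.45 and 12.88 and RPL29 12.32 and 12.44, all proteins of the ribosome, and EEF1G, an elongation factor subunit, read 12.45 and 12.29. Ribosomal protein genes have many near-identical pseudogene copies, which can share signal. RPL13AP5, itself such a pseudogene, read 12.26 and 12.35. Among RNA genes, the spliceosomal RNA genes RNU5E-1 (12.87 and 13.19), RNU2-1 (12.57 and 13.45) and RNU5D-1 (12.49 and 12.71) were all higher on replicate 2. SNORD33 read 13.09 and 12.91, SNORD116-15 read 12.57 and 12.65, and RMRP, an RNA that processes ribosomal RNA, read 12.60 and 12.31. H4C3, a histone gene with near-identical copies, read 12.28 and 12.92. Of the 100 brightest genes 86 were protein-coding, 31 were cytosolic ribosomal protein genes and 5 were on the lists of secreted liver proteins. Of the 500 brightest, 46 were ribosomal protein genes and 21 were among the 77 measured secreted liver genes.

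A high rank can rest on 1 of several rows. PLCG2, a phospholipase of blood cells, had 1 row at a mean of 12.43 and another at 3.53, and FAF2 had rows at 12.26 and 6.66. Their places in the top 20 came from the brighter row only. RPL29 had rows at 12.38 and 9.80, and KRT18 at 12.54 and 10.99. The 2 rows of APOA1 differed little, at 11.58 and 11.55. Of 769 genes with several rows, the gap between the brightest and the dimmest row had a median of 0.53, and it was at least 2 for 141 genes.

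Secreted carriers, protease inhibitors and apolipoproteins were the liver groups with the highest levels. Of 29 measured carriers and inhibitors, 25 lay above the olfactory limit and 20 above the silent tissue limit, larger shares than among all genes, and their median percentile was 91.8. AMBP, the precursor of alpha-1-microglobulin, read 11.69 and 11.54. AHSG, fetuin A, read 11.47 and 11.38, and SERPINA3, antichymotrypsin, read 11.19 and 11.14. TF, the iron carrier transferrin, read 11.04 and 10.84, and SERPINA1, the elastase inhibitor alpha-1-antitrypsin, read 10.90 and 10.94. At the other end were 4 members not above the limit on both arrays. HP, the haemoglobin binder haptoglobin, read 4.35 and 4.18, above the limit on replicate 1 only. ITIH1 read 4.04 and 3.84, FETUB 3.68 and 3.61, and TTPA, the liver's vitamin E transfer protein, 3.15 and 3.11. The group thus held both some of the brightest protein-coding genes and some near the olfactory median.

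Of 13 apolipoprotein and lipoprotein assembly genes, 12 lay above the olfactory limit and 10 above the silent tissue limit, with a median percentile of 97.2. After APOA2 and APOA1 came APOC1 at 9.97 and 10.40, APOB, the frame of very-low-density lipoprotein, at 10.01 and 10.31, and APOE, a ligand for lipoprotein receptors, at 10.00 and 10.22. These 3 were all higher on replicate 2. Between the anti-miR-191 arrays the differences were 0.04 for APOC1, -0.81 for APOB and -0.19 for APOE. MTTP, which loads lipid onto APOB, read only 4.98 and 4.75, above the olfactory but not the silent tissue limit. LPA, the apolipoprotein(a) gene, read 3.47 and 4.06 and was the 1 member below the limit.

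Clotting and complement genes were split. Of 35 members, 24 lay above the olfactory limit and 14 above the silent tissue limit, shares close to the 60.7% and 33.2% of all genes, and the median percentile was 56.1. C3, the central complement protein, read 10.84 and 10.90, and SERPINF1 read 10.63 and 10.44. PROC, the anticoagulant protein C, read 9.11 and 8.96, SERPINF2, antiplasmin, 8.95 and 8.39, and F2, prothrombin, 8.84 and 8.45. By contrast F9, the factor lacking in haemophilia B, read 2.32 and 2.42. C9 and C8A, parts of the complement membrane attack complex, read 2.73 and 2.66 and 2.87 and 2.81, and F13B, a subunit of the clot-crosslinking factor XIII, read 2.75 and 2.65. These 4 lay below the olfactory receptor median on both arrays.

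Enzymes of adult drug metabolism were low as a group. Of 31 cytochrome P450 and conjugation genes, 15 lay above the olfactory limit and 7 above the silent tissue limit, smaller shares than among all genes, and the median percentile was 38.7. The highest were CYP27A1, a mitochondrial sterol hydroxylase, at 9.46 and 8.96, ALDH2, which oxidises acetaldehyde, at 8.70 and 9.07, and EPHX1, an epoxide hydrolase, at 8.19 and 8.41. ALDH1A1, a retinal dehydrogenase, read 7.85 and 8.28, and CES2, a carboxylesterase, 7.73 and 7.29. At the low end, CYP3A4, the main drug-oxidising P450 of adult liver, read 2.82 and 2.76. The alcohol dehydrogenase ADH1C read 2.74 and 2.68, and the glucuronosyltransferases UGT2B7 and UGT2B17 read 2.62 and 2.90 and 2.29 and 2.24. CYP2E1, which oxidises ethanol, read 4.43 and 4.58, only just above the limit. The CYP3A and UGT2B genes have closely similar copies that can share signal.

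The urea cycle and amino acid genes were split too. Of 24 members, 17 lay above the olfactory limit and 13 above the silent tissue limit, with a median percentile of 67.2. These were larger shares than the 60.7% and 33.2% of all genes. HPD, an enzyme of tyrosine breakdown, was the highest at 11.35 and 11.04. ASS1, the argininosuccinate synthase of the urea cycle, read 9.81 and 9.48, GLUL, glutamine synthetase, 9.08 and 8.95, MAT1A, the methionine adenosyltransferase of adult liver, 8.95 and 8.55, and FAH, the last enzyme of tyrosine breakdown, 8.64 and 8.46. All 5 were lower on replicate 2. Of the cycle's own enzymes, OTC, ornithine transcarbamylase, read 2.58 and 2.52, and ARG1, the liver arginase that releases urea, 2.85 and 2.83, both below the olfactory median on both arrays. CPS1, the first enzyme of the cycle, read 4.95 and 5.20, between the 2 limits. TDO2, a tryptophan oxygenase, read 2.54 and 2.60, and GLYAT, a glycine conjugation enzyme, 2.89 and 3.04.

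Of 16 gluconeogenic and hepatic sugar genes, 10 lay above the olfactory limit and 6 above the silent tissue limit, shares near those of all genes. SLC37A4, the glucose-6-phosphate transporter, read 7.97 and 7.86, and PCK2, the mitochondrial phosphoenolpyruvate carboxykinase, 7.99 and 7.73. KHK, fructokinase, read 7.62 and 7.06, PC, pyruvate carboxylase, 7.21 and 6.83, and PYGL, liver glycogen phosphorylase, 6.79 and 7.07. The last steps of glucose output lay low, with the cytosolic carboxykinase PCK1 at 3.48 and 3.79 and the glucose-6-phosphatase gene G6PC1 at 3.19 and 3.02. GYS2, liver glycogen synthase, read 2.91 and 2.82, and IGF1, the liver-made growth factor, 2.83 and 2.83.

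Bile acid genes and hepatic transporters were the lowest of the liver lists, with 10 of 22 above the olfactory limit, 4 above the silent tissue limit and a median percentile of 31.3. ABCC2, an export pump of the canalicular membrane, read 8.17 and 8.52. SLCO2B1, an uptake carrier, read 7.92 and 7.22, SLC51B, a bile acid exporter subunit, 7.03 and 7.11, ABCB1, a drug efflux pump, 5.84 and 6.43, and ABCG8, a sterol exporter subunit, 6.11 and 5.80. The bile salt export pump ABCB11 read 2.77 and 2.72, and BAAT, which joins bile acids to amino acids, 2.78 and 2.75. The liver uptake carriers SLCO1B1 and SLCO1B3 read 2.98 and 2.90 and 2.20 and 2.34. CYP7A1, the rate-limiting enzyme of bile acid synthesis, read 3.21 and 2.82. None of these 5 genes reached the olfactory limit on either array.

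The transcription factors of the liver were mostly above the limits. Of 23 measured, 19 passed the olfactory limit and 17 the silent tissue limit, with a median percentile of 78.1. NR0B2, the bile acid-induced repressor SHP, read 9.25 and 9.29. CEBPA and CEBPB, factors of hepatocyte differentiation and of the acute phase, read 8.69 and 8.07 and 8.20 and 7.69, both lower on replicate 2. Between the anti-miR-191 arrays CEBPA differed by -0.08 and CEBPB by 0.39. HHEX, needed for liver bud growth, read 7.77 and 8.22, and the pioneer factor FOXA2 read 7.87 and 7.32. Below the limit on both arrays were NR1I3, the drug sensor CAR, at 3.51 and 3.35, the oestrogen receptor ESR1 at 3.35 and 3.44, NR5A2, a regulator of bile acid genes, at 3.20 and 3.33, and HNF4G at 3.17 and 3.23.

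**Figure D2:**
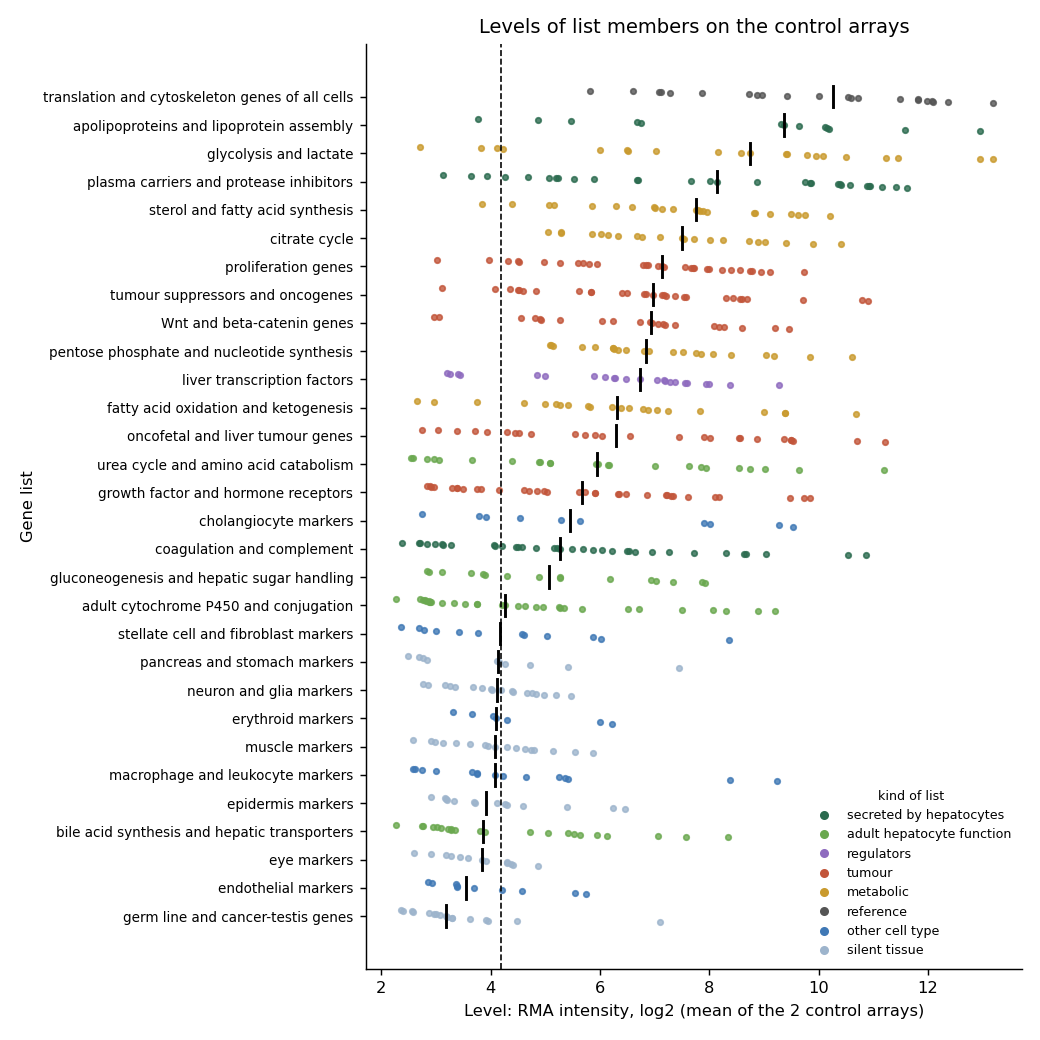
Levels (log2 RMA intensity, mean of the 2 control arrays) of every measured member of 30 gene lists, ordered by list median (black bar), with colours for the kind of list and the olfactory limit dashed. Translation, glycolysis and apolipoprotein lists lie to the right, while germ line, endothelial, eye and bile acid lists have medians left of the limit.

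Oncofetal and liver tumour genes ranged over the whole scale. Of 26 measured, 20 lay above the olfactory limit and 14 above the silent tissue limit, with a median percentile of 72.1. Among all genes the shares were 60.7% and 33.2%, smaller than in this list. NQO1, a quinone reductase induced by NRF2, read 11.18 and 11.25. GPC3, a cell-surface proteoglycan used as a marker of hepatocellular carcinoma, read 10.51 and 10.91. KRT19, a keratin of bile ducts and progenitor cells, read 9.80 and 9.27, and PEG10, an imprinted retrotransposon-derived gene, 9.24 and 9.73. At the low end, CD24, a surface marker of progenitor cells, read 2.77 and 3.31, REG3A, a secreted lectin, 2.74 and 2.75, and GOLM1, a Golgi protein raised in liver disease, 3.37 and 3.41. TSPAN8, a tetraspanin, read 3.55 and 3.89. The median difference of the list, replicate 2 minus replicate 1, was 0.33, while that of all genes was -0.02. Between the anti-miR-191 arrays of the same experiments the list's median difference was -0.13.

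Of 34 growth factor and hormone receptors, 23 lay above the olfactory limit and 14 above the silent tissue limit, with a median percentile of 62.7. These shares were only a little larger than the 60.7% and 33.2% of all genes. Both subunits of the hepatocyte asialoglycoprotein receptor, which clears glycoproteins from plasma, were among the highest, ASGR1 at 9.92 and 9.76 and ASGR2 at 9.49 and 9.45. FGFR4, the receptor through which FGF19 represses bile acid synthesis, read 9.87 and 9.61. FGFR3 read 8.32 and 7.88, and IGF2R, which takes up and clears IGF2, 7.99 and 8.35. FGFR2 read 2.90 and 2.76, the growth hormone receptor GHR 2.91 and 2.90, the prolactin receptor PRLR 2.79 and 2.98, and KIT, the stem cell factor receptor, 2.93 and 2.98. FGFR1 read 6.48 and 6.22. Within the FGF receptor family the arrays therefore read FGFR4 and FGFR3 far above the limits, FGFR1 less far above them and FGFR2 below them.

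HepG2 is known to carry an activating deletion in CTNNB1, the gene of beta-catenin, the effector of canonical Wnt signalling. CTNNB1 itself read 7.67 and 8.52. Of 22 Wnt genes, 20 lay above the olfactory limit and 15 above the silent tissue limit, with a median percentile of 80.9. Both shares were larger than the 60.7% and 33.2% of all genes. The feedback inhibitors NKD1 and NOTUM, both Wnt targets, read 9.32 and 9.59 and 9.41 and 8.99. SP5, another target, read 8.30 and 8.06, CCND1, cyclin D1, 8.50 and 8.70, and the co-receptor LRP5 8.38 and 8.17. The feedback target AXIN2 read 6.63 and 6.82 and the receptor LGR5 6.64 and 7.21. LRP6, the other co-receptor, read 4.44 and 4.66, and DKK4, a secreted inhibitor, 4.79 and 4.83. LEF1, a Wnt-responsive transcription factor, read 3.11 and 3.01, and APC, the scaffold of beta-catenin breakdown, 2.95 and 2.98.

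Of 29 tumour suppressors and oncogenes, 27 lay above the olfactory limit and 20 above the silent tissue limit, larger shares than the 60.7% and 33.2% of all genes. BCL2L1, an anti-apoptotic gene, read 10.89 and 10.94, and CDK4, a kinase of the G1 phase, 10.69 and 10.89. The kinases AKT1 and AKT2 read 9.82 and 9.62 and 8.75 and 8.45, and KEAP1, which holds NRF2 in check, 8.83 and 8.54. BCL2, the founding member of the BCL2L1 family, read 4.51 and 4.50, near the olfactory limit. MYCN read 4.34 and 4.35. The checkpoint gene RB1 read 3.92 and 4.25, above the limit on replicate 2 only, and MDM4, an inhibitor of p53, 2.96 and 3.27.

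Genes of dividing cells were well represented, with 27 of 31 above the olfactory limit, 20 above the silent tissue limit and a median percentile of 83.3. Of all genes 60.7% and 33.2% lay above these limits. PLK1, a mitotic kinase, read 9.56 and 9.91, and CDC20, an activator of the anaphase-promoting complex, 8.73 and 8.75. The helicase subunits MCM5 and MCM7 read 9.25 and 8.98 and 9.05 and 8.85, and TYMS, thymidylate synthase, 8.58 and 8.97. MKI67, the Ki-67 antigen, read 6.45 and 7.10. Lower on the scale were BUB1B (4.02 and 4.99), CDK1 (4.0 and 4.64) and KIF11 (3.65 and 4.29), mitotic genes that lay above the limit on replicate 2 only, and TTK (3.0 and 3.05). The median difference of the list was 0.25 on the control arrays and 0.01 on the anti-miR-191 arrays. No test of this difference between the pairs was made.

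Glycolysis was the brightest metabolic list, with 17 of 21 members above both limits and a median percentile of 95.1. TPI1, triosephosphate isomerase, read 11.38 and 11.53, SLC2A1, the glucose carrier GLUT1, 11.23 and 11.24, and PKM, pyruvate kinase of tumours and most tissues, 10.38 and 10.63. SLC2A2, the glucose carrier of adult hepatocytes, read 5.01 and 5.54, between the limits. The 4 members not above the limit on both arrays were HK3 (4.30 and 4.17), PFKM (4.13 and 4.09), HK1 (3.93 and 3.72) and LDHB (2.81 and 2.59). Isozymes of these steps above both limits included LDHA, lactate dehydrogenase A, at 10.13 and 10.03, and HK2, hexokinase 2, at 6.69 and 7.35.

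Of the 21 citrate cycle genes all lay above the olfactory limit and 16 above the silent tissue limit. MDH2, malate dehydrogenase, read 10.43 and 10.40, SDHC, a succinate dehydrogenase subunit, 9.72 and 10.08, and CS, citrate synthase, 8.79 and 9.27. The isocitrate dehydrogenase genes IDH3B and IDH2 read 9.66 and 9.16 and 9.09 and 8.69. Lowest were SUCLG2 (4.49 and 5.63) and SUCLA2 (5.16 and 5.44), alternative subunits of succinyl-CoA ligase, DLD (5.03 and 5.54), shared by several dehydrogenases, and PDHB (5.84 and 5.87). The median difference of the list was 0.24 on the control arrays and -0.02 on the anti-miR-191 arrays.

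Lipid synthesis was also high. Of 23 sterol and fatty acid synthesis genes, 21 lay above the olfactory limit and 17 above the silent tissue limit, with a median percentile of 89.2. EBP and DHCR7, enzymes of late cholesterol synthesis, read 10.45 and 9.95 and 10.00 and 9.49. FASN, fatty acid synthase, read 9.72 and 9.54, SCD, which makes monounsaturated fatty acids, 9.36 and 9.62, and ACLY, the source of cytosolic acetyl-CoA, 9.01 and 9.22. SC5D, a late sterol desaturase, read 4.63 and 5.68, more than 2-fold higher on replicate 2. ACACB, the mitochondrial acetyl-CoA carboxylase, read 5.14 and 4.99, INSIG1, a sterol sensor partner, 4.56 and 4.22, and ELOVL6, a fatty acid elongase, 3.89 and 3.80.

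Fatty acid oxidation genes lay lower on the whole, with 19 of 22 above the olfactory limit, 13 above the silent tissue limit and a median percentile of 72.3. ECHS1, a mitochondrial hydratase, read 10.66 and 10.73, ECI1 9.39 and 9.38, ACAA1, a peroxisomal thiolase, 9.47 and 9.30, and ACADVL, which acts on very long chains, 9.30 and 8.70. HADHA, of the trifunctional protein, read 7.83 and 7.85. EHHADH, a peroxisomal enzyme, read 4.32 and 4.91, PPARGC1A, a coactivator of fasting metabolism, 3.75 and 3.75, the fatty acid carrier CD36 2.93 and 2.99, and ACADL 2.68 and 2.64. The list's median difference was -0.15 on the control arrays and -0.29 on the anti-miR-191 arrays, lower on replicate 2 in both.

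All 22 genes of the pentose phosphate pathway and nucleotide synthesis lay above the olfactory limit, and 18 above the silent tissue limit. PGD, a source of NADPH, read 10.70 and 10.54, TALDO1 and TKT, of the non-oxidative branch, 9.99 and 9.68 and 9.17 and 8.89, and the purine enzymes IMPDH2 and ATIC 9.42 and 8.93 and 8.27 and 8.51. RPE, an epimerase of the same branch, read 4.51 and 5.75 and was the widest of the lower members. CTPS2, PPAT and PRPS2, enzymes of nucleotide synthesis, read 5.70 and 5.64, 5.09 and 5.10, and 4.91 and 5.28.

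Of the 22 translation and cytoskeleton genes that all cells express, all lay above the olfactory limit and 21 above the silent tissue limit, with a median percentile of 98.8. EEF1A1, the main elongation factor, read 12.10 and 12.10, TUBB, a tubulin, 12.07 and 12.07, and ACTG1, gamma-actin, 12.19 and 11.79. The lowest were common reference genes, with YWHAZ at 6.70 and 7.52, TBP at 7.17 and 6.98, GUSB at 6.61 and 6.58, and HPRT1 at 5.74 and 5.89. Their spread shows how far apart probe sets of broadly expressed genes lie on this scale.

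Whole families showed the same contrast between machinery and tissue-restricted genes. Of 67 cytosolic ribosomal protein genes 65 lay above the olfactory limit, of 72 mitochondrial ribosomal protein genes 70, of 33 complex I subunits 31, of 36 proteasome subunits 34, and of 33 aminoacyl-tRNA synthetases 33. Their median percentiles were 99.2, 87.6, 94.3, 85.8 and 80.6. At the other end none of 24 bitter taste receptors and none of 8 interferon alpha genes lay above the limit on both arrays. Of 24 beta-defensins 3 did, and the highest of them was DEFB1, an epithelial defensin, at a mean of 7.19. Of 480 zinc finger genes of the ZNF series 152 lay above the limit, with a median percentile of 24.9, so this large family of transcription factors read low as a whole. HOX genes (12 of 27) and voltage-gated and other potassium channels of the KCN series (33 of 73) lay below the share of all genes, while solute carriers (199 of 329) lay at it. Of 68 keratin-associated protein genes 29 were above the limit, and these hair genes include closely similar copies.

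Markers of the other liver cell types gave a mixed picture. Of 10 cholangiocyte markers 7 lay above the olfactory limit and 4 above the silent tissue limit: KRT19, SPP1 (osteopontin, 9.16 and 9.40), the adhesion molecule EPCAM (7.30 and 8.73) and the duct factor SOX9 (7.85 and 7.96). KRT7, a duct keratin, read 5.71 and 5.56 and MUC1 4.60 and 4.46. Not above the olfactory limit were SCTR, the secretin receptor, at 3.73 and 4.12, the water channel AQP1 at 3.80 and 3.78, and CFTR, the chloride channel, at 2.65 and 2.84. KRT19, EPCAM and SOX9 are on the oncofetal list too.

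Of 12 stellate cell and fibroblast markers 6 lay above the olfactory limit and 3 above the silent tissue limit: ACTA2, smooth muscle actin, at 8.40 and 8.32, COL1A1, type I collagen, at 6.0 and 6.05, and DES, desmin, at 6.06 and 5.70. ACTA2 is closely similar to other actin genes. PDGFRB read 5.22 and 4.84 and COL1A2 4.77 and 4.44. The matrix genes LUM (2.41 and 2.30) and DCN (2.74 and 2.65), and RGS5 (2.69 and 2.86) and LRAT (3.01 and 3.0), read near or below the olfactory median. Of 10 endothelial markers 3 lay above the olfactory limit and none above the silent tissue limit. CLEC4G read 5.52 and 5.96, ENG 5.66 and 5.41 and STAB1 4.58 and 4.59, while CDH5, which holds endothelial cells together, read 4.24 and 4.17 and the others lower still, VWF at 3.70 and 3.70, KDR at 3.42 and 3.34, PECAM1 at 3.55 and 3.17, LYVE1 at 3.04 and 2.80 and TEK at 2.83 and 2.88.

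Of 15 macrophage and leukocyte markers 7 lay above the olfactory limit and 2 above the silent tissue limit. These were LYZ, lysozyme, at 9.25 and 9.23, and the lysosomal protein CD68 at 8.50 and 8.28. Other members were low. PTPRC, the leukocyte antigen CD45, read 2.68 and 2.57, and the macrophage receptor CD163 3.0 and 3.02. The B cell marker MS4A1 read 2.72 and 2.79, and FCGR3A 2.64 and 2.52. CD79A, NKG7 and CD14 lay between the limits at 5.56 and 5.27, 5.60 and 5.13, and 5.32 and 5.17. Among 7 erythroid markers 2 passed both limits, the embryonic globin HBZ at 6.40 and 6.04 and the red cell factor KLF1 at 5.93 and 6.07. ALAS2, EPB42, HBD, HBB and AHSP were not above the olfactory limit on both arrays, and HBB, adult beta-globin, read 3.62 and 3.70.

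Markers of tissues outside the liver were low, and a few stood out. Above the silent tissue limit were 5 of the 89: the cancer-testis gene CTAG2 at 7.05 and 7.16, PGC, the stomach enzyme pepsinogen C, at 7.51 and 7.40, DES of muscle, and the epidermal envelope genes LCE1A and LCE2A at 6.34 and 6.59 and 6.16 and 6.31. Since this limit is itself the 95th percentile of these markers, about this number lies above it by construction. In the germ line list 2 of 17 lay above the olfactory limit, CTAG2 and the protamine PRM2 (4.55 and 4.39). The counts were 8 of 17 for muscle, 8 of 18 for neurons and glia, 5 of 14 for epidermis, 3 of 10 for pancreas and stomach, and 5 of 13 for the eye. The median levels of these lists ran from 3.18 for the germ line to 4.13 for pancreas and stomach. At the low ends of the lists were SYCP1 of meiosis (2.43 and 2.30), the synaptic gene SYT1 (2.85 and 2.85), MYH1 of muscle (2.80 and 2.36), RPE65 of the eye (2.58 and 2.62) and GKN1 of the stomach (2.42 and 2.54). The neuronal factor RBFOX3, at 5.42 and 5.50, was the highest of the nervous system list.

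The 2 experiments gave closely similar profiles. Across the 18417 genes the arrays correlated at r = 0.987 (rho = 0.987), and across genes above the olfactory limit on both arrays at r = 0.973. Genes on a pair of arrays are not independent replicates, and probe binding, which both arrays share, adds to these values. Of 11938 genes above the limit on at least 1 array, 10799 (90.5%) lay within 1.5-fold, and the median absolute difference was 0.21. The top 100 genes of each array shared 88, and the top 500 shared 423. The spread was smallest at the bottom of the range, where values crowd together: the pooled SD was 0.12 in the lowest of 10 equal classes of genes, 0.29 in class 9 and 0.26 in the highest. For the 11938 genes the pooled SD was 0.26, which is the spread of single arrays and not of the difference between 2. Since the median absolute difference was 0.21, replicate differences of about that size are ordinary.

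Of the 11938 genes, 151 (1.26%) differed at least 2-fold between the control arrays. On replicate 2, 132 (1.11%) were higher and 19 (0.159%) were lower, so most of the large differences went 1 way. Small RNA genes were frequent among them. Small nucleolar RNA (snoRNA) genes, whose products guide modification of ribosomal RNA and mostly sit in introns of host genes, made up 31 of the 151, with 25 higher and 6 lower of 127 (24.4%). Of 17 spliceosomal snRNA genes 5 (29.4%) were at least 2-fold higher. Of 11197 protein-coding genes 106 were 2-fold apart, 94 higher and 12 lower (0.947%). The pooled SD was 0.69 for snoRNA, 0.73 for snRNA and 0.25 for protein-coding genes. The sources used here state no RNA amount or quality, and their part was not tested.

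**Figure D3:**
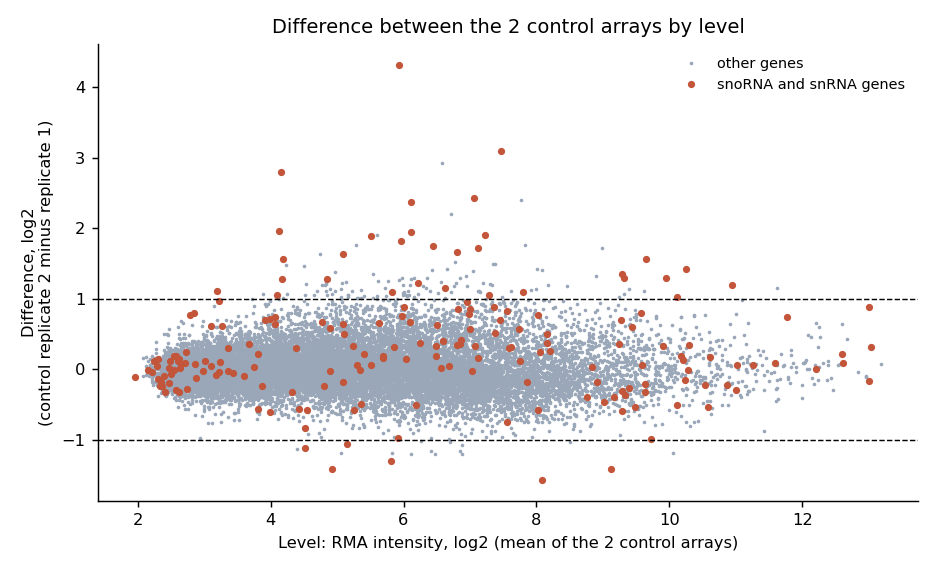
Difference between the control arrays (replicate 2 minus replicate 1, log2) against mean level (log2 RMA intensity) for 18417 genes, with snoRNA and snRNA genes in red and dashed lines at 2-fold. Most genes lie in a narrow band around 0, and many red points lie above the upper line, up to 4.32 for SNORD81.

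The largest difference was in SNORD81, which read 3.77 on replicate 1 and 8.09 on replicate 2. On the anti-miR-191 arrays, which had no part in choosing the gene, the second experiment was higher by 4.76. SNORD58A read 5.91 and 9.01, SNORD82 4.92 and 7.29, SNORD61 2.75 and 5.55 and SNORD59B 3.14 and 5.10, all box C/D snoRNAs. Their differences between the anti-miR-191 arrays were 3.40, 2.70, 4.48 and 1.80, in the same direction. SNORD81, SNORD61 and SNORD59B were not above the olfactory limit on replicate 1 and were above it on replicate 2. The snRNA gene RNU5F-1 read 5.84 and 8.27, with 1.92 between the anti-miR-191 arrays, and the vault RNA gene VTRNA1-1 read 5.11 and 8.04, with 1.10 there.

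The 2 protein-coding genes among the 10 largest positive differences were SNRPE, a core protein of spliceosomal particles, and C12orf75. SNRPE read 6.57 and 8.97, with a difference of 2.40 between the controls and 2.36 between the anti-miR-191 arrays. C12orf75 read 5.62 and 7.81, with differences of 2.19 and 1.20. LSM5, a protein that binds spliceosomal U6 RNA, followed at 4.65 and 6.55, with differences of 1.91 and 1.98. SPINK1, a secreted trypsin inhibitor often high in liver tumours, read 3.93 and 5.55, below the limit on replicate 1, with differences of 1.63 and 2.16. EPCAM differed by 1.42 between the controls and by 0.41 between the anti-miR-191 arrays, and did not pass the limma test described below (adjusted p = 0.167).

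Among genes lower on replicate 2, SNORD45B read 8.87 and 7.29, a difference of -1.57, with -1.01 between the anti-miR-191 arrays. SCARNA17, a small RNA of the Cajal body, read 10.65 and 9.47, with differences of -1.19 and -1.01. SNORA20 read 9.83 and 8.41, SNORA54 6.47 and 5.17 and SNORA41 5.64 and 4.22. Protein-coding genes at this end were ARSI, an arylsulfatase, at 7.49 and 6.28, FARS2, the mitochondrial phenylalanyl-tRNA synthetase, at 6.72 and 5.51, CPN1, a plasma carboxypeptidase made by the liver, at 7.08 and 5.87, PPIP5K1, an inositol phosphate kinase, at 6.43 and 5.24, and TSSK6, a testis kinase, at 5.65 and 4.46. For PPIP5K1 the anti-miR-191 arrays differed the other way, by 0.18. For TSSK6 they differed in the same direction, by -0.05.

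Of the 132 genes that were at least 2-fold higher on control replicate 2, 106 (80.3%) were also higher on replicate 2 of the anti-miR-191 arrays, 39 of them at least 2-fold. Of the 19 lower genes 16 (84.2%) were lower there, 2 of them at least 2-fold. Among all 11938 genes 7155 (59.9%) had the same direction in both pairs, and the differences correlated at r = 0.356 across genes. The median difference of the 132 genes was 1.19 between the controls and 0.54 between the anti-miR-191 arrays, and that of the 19 genes was -1.18 and -0.37. The second pair thus showed the same directions with smaller differences. The genes were chosen as the extremes of the first pair, and this choice favours smaller differences in the second pair.

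**Figure D4:**
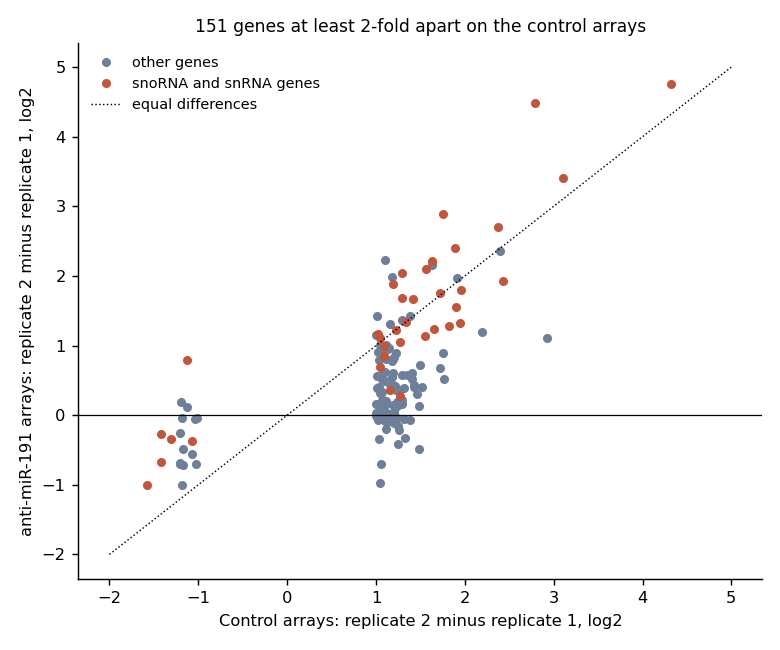
Difference between replicates 2 and 1 (log2) on the anti-miR-191 arrays against that on the control arrays, for the 151 genes at least 2-fold apart on the controls, with snoRNA and snRNA genes in red and a dotted line where both differences are equal. Right of 0 the red points lie on both sides of the dotted line, while most other genes lie below it.

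The difference between experiments was tested with limma over the 4 arrays, with treatment as a term, which leaves 1 residual degree of freedom, moderated across genes. After Benjamini-Hochberg adjustment 72 of 18417 genes (0.391%) passed 0.05, with 69 higher and 3 lower in the second experiment. Of these 26 were snoRNA, 5 snRNA and 33 protein-coding genes. SNORD81 (adjusted p = 5.46e-05), SNORD58A (0.000202), SNRPE and SNORD82 (both 0.00074), LSM5 (0.00234), SNORD59B (0.00285), RNU5F-1 (0.00293), SPINK1 (0.00599) and SNORD61 (0.00626) rose by limma, and SCARNA17 (0.0276) and SNORD45B (0.0298) fell. VTRNA1-1 did not pass (limma adjusted p = 0.0759), nor did CPN1 (0.0739) or ARSI (0.072). The control arrays enter this fit, so for genes picked by their control difference it is not independent of the choice. Without the treatment term no gene passed (521 at an unadjusted p under 0.05, against 2164 with it, SNORD81 at an adjusted p of 0.0549), and median centring or quantile normalization left 29 and 20 genes, with SCARNA17 and SNORD45B no longer past the threshold under quantile normalization (adjusted p = 0.0708 for both). With the median row of a gene in place of the brightest, SNRPE (adjusted p = 0.199) and SCARNA17 (0.115) no longer passed.

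Of the 127 snoRNA genes above the limit on at least 1 array, 68 lay within the span of a measured host gene, 50 hosts in all. The absolute difference between the control arrays was larger for the snoRNA than for its host in 49 of the 68, with a median of 0.58 for the snoRNAs and 0.21 for the hosts. Some of these snoRNAs, such as SNORD59B (3.14 and 5.10), passed the limit on 1 array only, while hosts faced no such filter. This favours larger differences in the snoRNAs, so nothing is read from the count. In the other cases the host differed as much or more, as for SNORA75, which differed by 0.24 within NCL, the gene of nucleolin, which differed by 1.33. Between the anti-miR-191 arrays NCL differed the other way, by -0.33, and SNORA75 by 0.74. Of the 31 snoRNA genes that differed 2-fold, 19 had a measured host, 16 hosts in all. These snoRNAs were chosen for a large difference and their hosts were not, so nothing is read from the medians of 1.42 and 0.30. Of the 16 hosts 5 differed at least 1.5-fold and 1, NCL, at least 2-fold. Among the 11938 genes above the limit on at least 1 array, 1139 differed at least 1.5-fold and 151 (1.26%) at least 2-fold. SNORD45B and SNORD45C, which lie within the same gene RABGGTB, differed in opposite directions, by -1.57 and 1.95, while RABGGTB read 6.50 and 7.15. SNORD45C itself read 5.14 and 7.09.

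Promoter composition varied with level. For 13769 protein-coding genes with a RefSeq promoter, the 8589 above the olfactory limit had a median GC content of 65.7% and a median CpG ratio of 0.83, against 57.3% and 0.62 for the 5180 that were not above it on both arrays. Over 10 equal classes of genes in order of level, the median CpG ratio was 0.38 in the lowest and 0.87 in the highest. TATAAA, on either strand and anywhere in the 300 bases, was present in 8.99% of all these promoters, in 6.39% of those above the limit and in 13.3% of those not above it. Its share was 19.8% in the lowest class, 4.43% in class 8 and 7.48% in the highest. Microarray signal also depends on the GC content of probes, whose part was not tested.

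**Figure D5:**
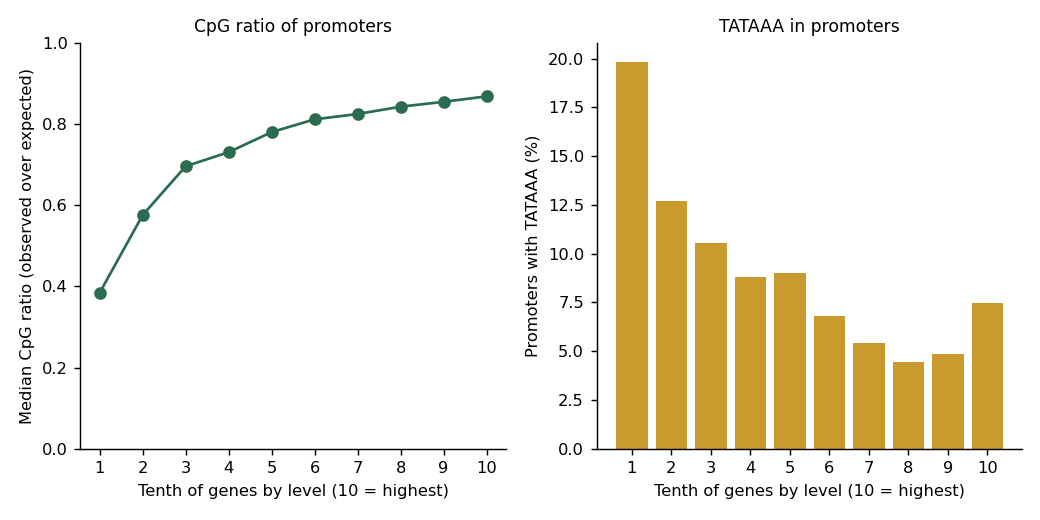
Median CpG ratio (left, observed over expected, no unit) and percentage of promoters with TATAAA (right) for protein-coding genes in 10 equal classes by level on the control arrays, where 10 is the highest. The CpG ratio climbs from 0.38 to 0.87, and the TATAAA share falls from 19.8% to 4.43% in class 8 and is 7.48% in the highest.

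The secreted liver genes did not share the composition of other genes of high level. Their 57 promoters, from the carrier, apolipoprotein and coagulation lists, had a median CpG ratio of 0.23, and the 45 above the limit and the 12 not above it had medians of 0.23 and 0.22. The HNF1 motif GTTAATNAT was in 5 of the 57 (8.77%), against 72 of the 13769 (0.523%). CAAAGTCCA, a motif of the liver receptor HNF4, was in 3 (5.26%), against 0.305% of all. The 3 motifs were searched for separately on both strands. HNF1 matches were in ALB, FGA (a fibrinogen chain, 6.54 and 6.46) and C4BPA (a complement regulator, 6.26 and 6.17), all above the limit, and also in PLG (plasminogen, 3.17 and 3.05) and F13B, which were not. The motif was thus found at both ends of the scale. The P450 and conjugation list had a median CpG ratio of 0.18 over 23 promoters, with TATAAA in 10 of them (43.5%), and the 275 olfactory receptors had 0.12 and 31.3%. Proliferation genes, by contrast, had a ratio of 0.95 and Wnt genes one of 0.83.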

How the data were processed

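The series has 4 Affymetrix arrays of HepG2 RNA, labelled with biotin, 2 after a negative control anti-miR and 2 after anti-miR-191, per the labels. The authors deposited log2 intensities. They used RMA and Affymetrix Expression Console, as the submitters' processing notes name them. The software version and the set of arrays normalized jointly are not given in the sources. Base 2 was inferred from the values' range and RMA's usual scale. Arrays have no counting depth, so their number limits the precision.

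GEO's platform annotation of 2016 gave 1 symbol for 19460 of 33297 rows, several for 1754 and none for 12083. Of the 19460, 19429 were in the RefSeq gene table (GRCh38.p14). Their symbols as supplied already matched that table, so 0 were updated here. The names are thus those of RefSeq and not necessarily those of 2016. Rows with several symbols or none were not used. The brightest row on the control arrays stood for a gene, with no filter on dim rows. Levels, limits, ranks, differences of at least 2-fold and promoter features are descriptions without a test. The experiment difference was fitted with limma 3.58.1 (lmFit and eBayes, R 4.3.3), two-sided, over all 4 arrays with treatment as a term, Benjamini-Hochberg adjusted over 18417 genes at 0.05. The script was tested on simulated data. About the 2 cultures the series text says only that the duplicate treatments were done in independent studies. Each sample title opens with a number that is closer within a replicate than between replicates, and its meaning is not stated. The p-values set the replicate difference against how far it disagreed between the control and anti-miR-191 arrays, moderated across genes. They do not measure the spread between cultures or between further experiments. Figures were drawn with matplotlib 3.10.9.

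The genes and the 30 lists (691 entries, 609 of them measured) were chosen with earlier results of these data known. Named genes are the 4 markers, the 20 brightest, up to 5 of the highest and 4 of the lowest members of each list, and the 10 largest differences each way. AXIN2, CPS1, CTNNB1, CYP2E1, CYP7A1, DEFB1, FGA, FGFR1, C4BPA, HK2, LDHA, LGR5, LSM5, MKI67, NCL, PLG, RABGGTB, SNORA75, SLC2A2 and SPINK1 were chosen for the text after their values had been seen. The alternatives tried were the limit, the row for a gene, the scaling, the fold, the moderation, the filter and single arrays left out. Of 14237 genes with a promoter in the RefSeq table, the first start listed was used.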

Additional observations from a re-analysis of the deposited data

How the results depend on the processing

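The count of 11178 genes above the olfactory limit lay between 8871 and 12489 with the 99th or 90th percentile, with the median row of a gene or with mean levels, and between 11426 and 11690 with 1 array alone. It was 6111 with the silent tissue limit. The 419 list members above the limit became 285 to 455, and 429 to 436 with 1 array alone. The 151 genes at least 2-fold apart became 141 to 152 under median centring, quantile normalization, no filter or the median row, and 1139 at 1.5-fold. They split into 132 higher and 19 lower, 113 and 28 after median centring, and 126 and 24 after quantile normalization. The 72 genes called by limma for the experiment became 0 without the treatment term (521 at an unadjusted p under 0.05), 29 with median centring, 20 with quantile normalization, 117 with trended robust moderation and 28 over genes above the limit only. They were 66 with the median row, where SNRPE had an adjusted p of 0.199 and SCARNA17 one of 0.115. Of the 72, 20 were called under centring, quantile and trended fits alike. SNORD45B and SCARNA17 had adjusted p of 0.0596 and 0.057 over genes above the limit only, and SNORD45B 0.0536 with median centring. The causes were not tested. The CpG ratio of genes above minus not above the limit, 0.211, was 0.484 between the highest and lowest of 10 classes, 0.181 without olfactory receptors and 0.214 to 0.234 with 1 array alone. For single lists and genes, 252 values under alternatives stayed within 1.5 times the main count or within 1 SD of the main level, and 30 did not. With 1 of 2 arrays left out, a level lies within 1 SD by construction. The silent tissue limit for the lists, mean levels for the lists, the median row in the limma fit and the promoter alternatives without olfactory receptors or 1 array were chosen after seeing the data. Leaving an array out of the limma fit leaves no residual degree of freedom and was not run. No paired analysis was possible because the replicate number, which would be the block, is itself the experiment compared. The limma fit compares the experiments within each treatment, with treatment as the block. With 1 array per experiment and group, differences near the spread cannot be resolved.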
